A study of Mus musculus with 4 samples.

Results

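Ordinary stable gene-end sites are places where open chromatin was found in both genotypes, with peaks of much the same width, at the end of a single coding gene. They were taken from ATAC-seq of pachytene spermatocytes from mouse testis, an assay in which a transposase, Tn5, inserts adapters where chromatin is open. Cells labelled Znhit1_KO were set against cells labelled CTRL. All libraries carry the tag P35, and the labels name 2 libraries per genotype, each with over 30 M reads. How Znhit1 was deleted, in which cells, and what the control animals carried was not stated in the labels. The protein ZNHIT1 is a subunit of the SRCAP complex, which places the histone variant H2A.Z into nucleosomes beside gene starts, and the question is how its loss bears on chromatin accessibility at this stage. One peak list per genotype was analysed, so no value below has a replicate check and no test between genotypes was possible. Intervals are Wilson 95% intervals for shares and order-statistic 95% intervals for medians, and they cover counting error only.

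The sites were chosen from measured peaks by a fixed rule. A Znhit1_KO peak and a CTRL peak on chromosomes 1 to 19 had to overlap each other and no other peak, and the Znhit1_KO peak had to lie within 1 kb of an end of exactly 1 RefSeq coding gene. The ratio of the Znhit1_KO width to the CTRL width had to lie between 2/3, taken to 3 decimals, and 1.5, and the mean of both widths had to be under 1000 bp. This gave 2349 sites among 20845 Znhit1_KO peaks and 15241 CTRL peaks, which is 11.3% of the Znhit1_KO list and 15.4% of the CTRL list. They were 37.8% of the 6216 one-to-one pairs and 60.4% of the 3888 such pairs at the end of 1 coding gene. Of those 3888 pairs, 26.7% passed the 1.5-fold width bounds, 15.8% with the wider peak in Znhit1_KO (613 pairs) and 10.9% with the narrower peak in Znhit1_KO (424 pairs). The other 502 had a stable width and a mean of 1000 bp or more. The rule used these widths, so nothing is read from them.

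Gene starts in mammals are of several kinds. Most starts of genes that every cell uses lie in CpG islands, stretches where the dinucleotide CG is frequent, and such starts tend to be open in many cell types. Proteins such as SP1 and its relatives, NRF1, the ETS family, NF-Y, YY1 and CREB are known to bind short motifs just before or at these starts. In the male germ line, CREM and the MYB family member MYBL1 are known regulators of genes used in meiosis and after it.

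Nearly all the sites lay at gene starts and few at 3′ ends. The gene table names both ends of a gene, and RefSeq promoter windows (GRCm38.p6, the same primary chromosomes as mm10) gave the start and strand for 1905 of the 2349 sites. The others had no entry in the table. Of the 1905, 1892 (99.3%, 98.8 to 99.6) were within 1 kb of a start of their gene in either table and 13 (0.682%, 0.399 to 1.16) were near its 3′ end alone. For 27 of the 1892 the start was the gene table's end alone, as at Slx4, and the nearest promoter window lay more than 1 kb away. Other shared sites at the end of 1 coding gene were at starts too, with 99.5% (98.3 to 99.9) of those of 1000 bp or more, 98.8% (97.4 to 99.5) of those wider in Znhit1_KO and 99.7% (98.4 to 99.95) of those narrower in Znhit1_KO. Among peaks at the end of 1 coding gene that were found in Znhit1_KO alone, 14.4% (12.8 to 16.1) were near the 3′ end alone, and among those found in CTRL alone 18.99% (16.5 to 21.8). None of these differences between kinds of site, here or below, was tested.

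The promoter windows of 5 sites are printed to show what such a start looks like. Each is the site with the largest part shared by both peaks among the sites whose window holds the motif. Both peaks also had to cover the gene start, and predicted genes and sites already chosen were left out. Each runs 5′ to 3′ from 250 bases before the gene start to 50 bases from it, is taken from RefSeq (GRCm38.p6), and has the motif in capitals. The motifs are GCGCATGCG for NRF1, in the promoter of Trp53bp2, which encodes a partner of p53 in apoptosis, and CCGGAAG for the ETS family, in that of Rpl38, which encodes a protein of the large ribosomal subunit. CCAATCA is the NF-Y motif, in that of Espl1, which encodes separase, the protease that opens cohesin, and AAGATGGCG the YY1 motif, in that of the tyrosine kinase gene Abl2. TGACGTCA is the CREB and CREM motif, in that of the Mediator subunit gene Med21.
Trp53bp2, forward strand, chr1:182408917-182409216: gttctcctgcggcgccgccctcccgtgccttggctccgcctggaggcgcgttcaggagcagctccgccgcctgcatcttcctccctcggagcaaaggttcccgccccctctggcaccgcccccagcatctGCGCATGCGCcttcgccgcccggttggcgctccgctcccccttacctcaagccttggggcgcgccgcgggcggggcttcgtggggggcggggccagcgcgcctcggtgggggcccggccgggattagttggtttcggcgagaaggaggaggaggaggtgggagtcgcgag
Rpl38, forward strand, chr11:114668330-114668629: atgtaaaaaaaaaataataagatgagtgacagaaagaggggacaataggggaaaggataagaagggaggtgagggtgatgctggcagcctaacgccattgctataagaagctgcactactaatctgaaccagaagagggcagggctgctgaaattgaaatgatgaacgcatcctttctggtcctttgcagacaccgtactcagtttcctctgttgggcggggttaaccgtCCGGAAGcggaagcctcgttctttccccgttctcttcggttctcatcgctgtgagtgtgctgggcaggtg
Espl1, forward strand, chr15:102296043-102296342: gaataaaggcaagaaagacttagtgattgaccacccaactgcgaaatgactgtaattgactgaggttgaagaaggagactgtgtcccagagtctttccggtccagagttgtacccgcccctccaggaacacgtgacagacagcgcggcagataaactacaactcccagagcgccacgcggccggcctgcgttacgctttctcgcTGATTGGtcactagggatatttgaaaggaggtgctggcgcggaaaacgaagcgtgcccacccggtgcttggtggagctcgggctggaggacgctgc
Abl2, forward strand, chr1:156558537-156558836: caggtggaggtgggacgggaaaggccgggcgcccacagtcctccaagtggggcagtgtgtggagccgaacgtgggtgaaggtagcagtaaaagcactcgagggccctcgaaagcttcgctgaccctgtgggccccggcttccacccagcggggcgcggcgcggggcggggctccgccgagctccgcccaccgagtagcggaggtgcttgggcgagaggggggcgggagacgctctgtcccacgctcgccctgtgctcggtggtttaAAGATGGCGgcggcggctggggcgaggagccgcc
Med21, forward strand, chr6:146642329-146642628: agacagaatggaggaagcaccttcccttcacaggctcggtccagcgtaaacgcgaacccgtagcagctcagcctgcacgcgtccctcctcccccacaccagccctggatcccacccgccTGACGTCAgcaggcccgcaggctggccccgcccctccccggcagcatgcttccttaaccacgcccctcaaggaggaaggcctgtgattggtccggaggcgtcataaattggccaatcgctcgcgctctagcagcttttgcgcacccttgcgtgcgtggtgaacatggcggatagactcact

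Positions count from the start base as 0, negative before it. In Trp53bp2 the NRF1 motif was read on both strands, with matches from -120 and -119 bases, and both peaks covered the whole window. Its peak was 969 bp wide in Znhit1_KO and 995 bp in CTRL. In Rpl38 the ETS match began at base -20, inside peaks of 772 bp in Znhit1_KO and 782 bp in CTRL that ended at the same base. In Espl1 the NF-Y match lay on the opposite strand, at base -46, in peaks of 572 bp in Znhit1_KO and 578 bp in CTRL. In Abl2 the YY1 match began at base 16, in peaks of 813 bp in Znhit1_KO and 826 bp in CTRL, and in Med21 the CREB and CREM match began at base -131, in peaks of 855 bp in Znhit1_KO and 844 bp in CTRL. A match is a run of letters and shows nothing about binding.

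The promoters of 2 meiotic genes with such sites are printed in the same form, with every match to any of the 11 motifs searched in capitals. Hfm1 encodes a helicase needed for meiotic crossovers, and Sycp1 the transverse filament of the synaptonemal complex, which holds paired chromosomes together.
Hfm1, reverse strand, chr5:106925841-106926140: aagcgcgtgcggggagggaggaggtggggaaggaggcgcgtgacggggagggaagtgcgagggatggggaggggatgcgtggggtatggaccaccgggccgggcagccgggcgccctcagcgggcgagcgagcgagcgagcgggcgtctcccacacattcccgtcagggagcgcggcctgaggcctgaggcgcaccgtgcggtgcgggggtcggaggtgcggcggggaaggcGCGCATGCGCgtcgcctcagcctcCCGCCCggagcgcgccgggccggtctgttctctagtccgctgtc
Sycp1, reverse strand, chr3:102936051-102936350: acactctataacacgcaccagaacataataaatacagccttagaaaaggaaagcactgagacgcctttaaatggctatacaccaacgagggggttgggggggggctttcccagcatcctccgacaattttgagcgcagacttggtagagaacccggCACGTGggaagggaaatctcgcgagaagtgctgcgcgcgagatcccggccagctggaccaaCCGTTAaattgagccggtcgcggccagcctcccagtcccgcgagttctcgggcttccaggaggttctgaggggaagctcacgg

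The Hfm1 window held an NRF1 match on each strand, from bases -18 and -17, and an SP and KLF match (GGGCGG, here on the opposite strand) from base 6. The Sycp1 window held an E-box (CACGTG) from base -94 and a MYB match (TAACNG, on the opposite strand) from base -33. The GC content of the window was 75.3% at Hfm1 and 56.7% at Sycp1, and the observed over expected CG frequency was 1.03 at Hfm1 and 0.874 at Sycp1.

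A typical site was a peak of just under 700 bp. The width ran from 197 to 1186 bp in Znhit1_KO, with a median of 688 bp (674 to 698) and quartiles of 542 and 823 bp, and from 173 to 1179 bp in CTRL, with a median of 679 bp (669 to 692) and quartiles of 536 and 825 bp. The sites covered 1.60 Mb in each list. The median log2 ratio of Znhit1_KO to CTRL width was 0.01, with quartiles of -0.22 and 0.24, as the bounds of the rule allow. Of the 2349 sites, 1192 were wider in Znhit1_KO by any amount, 1150 were wider in CTRL and 7 were equal.

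**Figure D1:**
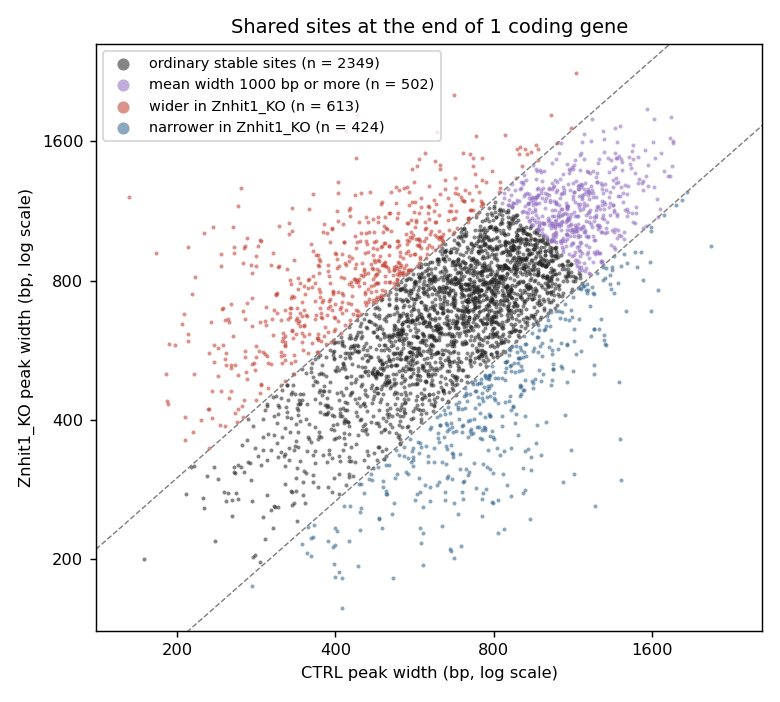
Width of the Znhit1_KO peak against width of the CTRL peak, in bp on log scales, at 3888 shared sites at the end of 1 coding gene. Each point is 1 site, dashed lines mark ratios of 2/3, taken to 3 decimals, and 1.5, and the 2349 black points between them, with a mean width under 1000 bp, are the sites described.

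Sites just inside and just outside the bounds are given to show where these fall. Rabgap1l, just inside the upper ratio bound, had 1124 bp in Znhit1_KO and 750 bp in CTRL, and Tle1, a corepressor gene just outside it, had 786 bp in Znhit1_KO and 524 bp in CTRL. At the lower bound, Smim15 had 453 bp in Znhit1_KO and 679 bp in CTRL and was inside, and Bbs10, a gene of the ciliary BBSome assembly, had 570 bp in Znhit1_KO and 855 bp in CTRL and was outside. At the width limit, Arid4a had 985 bp in Znhit1_KO and 1012 bp in CTRL and was inside, and Vps37c, an endosomal sorting gene, had 1034 bp in Znhit1_KO and 967 bp in CTRL and was outside.

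The outline of the peaks around the gene start is a description, since the rule asked for overlapping peaks of like width. The Znhit1_KO peak covered the nearest RefSeq start at 1765 of 1905 sites (92.7%, 91.4 to 93.7), and the CTRL peak at 1725 (90.6%, 89.2 to 91.8). Both covered it at 1716 sites, the Znhit1_KO peak alone at 49, the CTRL peak alone at 9, and neither at 131. The start was the one nearest the middle of the Znhit1_KO peak, which favours that peak where a gene has several starts. No difference between genotypes is therefore read from these counts. More than 50% of sites were covered from -280 to 360 bp around the start in Znhit1_KO, a span of 640 bp, and from -270 to 360 bp in CTRL, a span of 630 bp. At -500 bp 12.8% of sites were covered in Znhit1_KO and 14.02% in CTRL, and at 500 bp 23.3% in Znhit1_KO and 24.6% in CTRL. The outline thus reached further into the gene than before it in both genotypes.

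**Figure D2:**
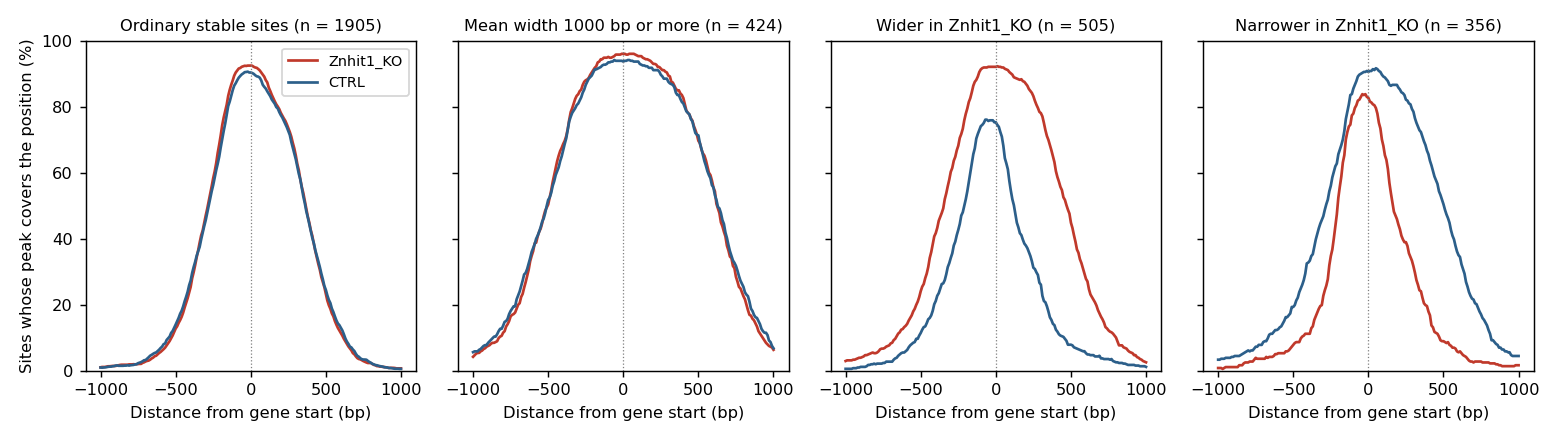
Share of sites, in %, whose peak covers each position from 1000 bp before to 1000 bp after the gene start, in Znhit1_KO (red) and CTRL (blue), for 4 kinds of shared site at the end of 1 coding gene. In the first panel both lines lie nearly on each other and top out at 92.7% in Znhit1_KO and 90.8% in CTRL. The start was the one nearest the middle of the Znhit1_KO peak, which favours the Znhit1_KO line. In the panels of sites chosen for a change in width they part, as the choice requires.

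The median upstream edge lay at -300 bp in Znhit1_KO (-311 to -289) and at -293 bp in CTRL (-305 to -283). The median downstream edge lay at 373 bp in Znhit1_KO (364 to 385) and at 370 bp in CTRL (361 to 382). Site by site, the downstream edge differed more between the lists than the upstream edge. The median size of the difference was 86 bp (80 to 91) downstream and 65 bp (61 to 69) upstream. The same order held at the sites of 1000 bp or more, with 127 bp (109 to 154) downstream and 78 bp (69 to 93) upstream. Where the Znhit1_KO peak was wider by the rule, the edges differed by a median of 272 bp downstream and 113 bp upstream, and where it was narrower by 273.5 bp downstream and 108 bp upstream. In these last 2 classes the rule set the size of the change in width.

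Among the 1905 sites, both edges reached further out in Znhit1_KO at 402 (21.1%, 19.3 to 23.0) and in CTRL at 271 (14.2%, 12.7 to 15.9). In most others the peak was shifted. The upstream edge reached further in Znhit1_KO and the downstream edge further in CTRL at 588 sites (30.9%, 28.8 to 33.0), and the reverse held at 570 (29.9%, 27.9 to 32.0). The remaining 74 had at least 1 edge at the same base. The width bounds limit how far both edges can move apart, so these 4 counts are a description.

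**Figure D3:**
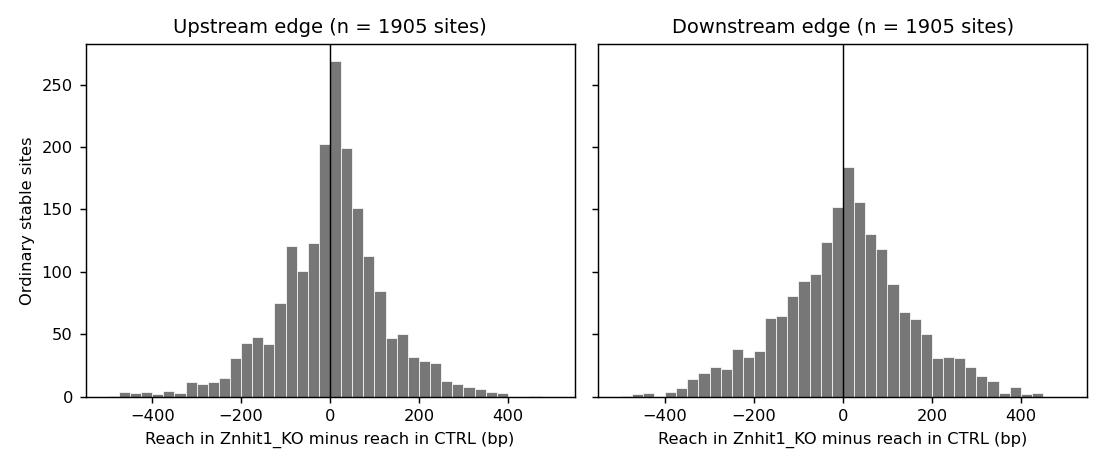
Number of ordinary stable sites by how much further the upstream edge (left) and the downstream edge (right) reached from the gene start in Znhit1_KO than in CTRL, in bp, in 25 bp bins, at 1905 sites. Both are centred near 0, and the spread is wider downstream, with a median size of 86 bp, than upstream, with 65 bp. Values beyond 500 bp are not drawn.

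The part shared by both peaks, as a percentage of the interval they span together and in part set by the width bounds, had a median of 76.5% (75.8 to 77.2), with quartiles of 67.4% and 85.7%. At the top stood Lars2, whose peak was the same to the base in both lists (543 bp; chromosome 9, 123461727 to 123462269) and lay at the 3′ end of the gene. Lars2 encodes the mitochondrial leucyl-tRNA synthetase, and this was the 1 site with identical intervals. Next came Myh9, a non-muscle myosin heavy chain gene, with 932 bp in Znhit1_KO and 936 bp in CTRL (99.6% shared; chromosome 15, from 77841662). Hells, which encodes a chromatin remodeller needed for DNA methylation, had 691 bp in Znhit1_KO and 697 bp in CTRL, with the same end base on chromosome 19 (38931289). Siva1 followed with 984 bp in Znhit1_KO and 993 bp in CTRL, and Espl1 with 572 bp in Znhit1_KO and 578 bp in CTRL.

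At the other end, some pairs of like width hardly touched. At Timm22, which encodes a translocase of the mitochondrial inner membrane, the Znhit1_KO peak of 275 bp ran from -262 to 12 bp around the start and the CTRL peak of 296 bp from 5 to 300 bp, with 1.42% shared. At Pelo, a ribosome rescue gene, the Znhit1_KO peak of 537 bp ran from -174 to 362 bp, and the CTRL peak of 560 bp from 344 to 903 bp, with 1.76% shared. Macrod1 (2.44%), Lrrc8b, an anion channel subunit gene (4.97%), and Stox1 (7.01%) were alike in this. A stable width therefore did not always mean the same stretch of chromatin, but such pairs were few. When 50% of both peaks had to overlap, 2276 of the 2349 sites remained.

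By mean width, which the rule used, the sites are described as follows. The 175 sites under 400 bp shared a median of 68.4% of the joined interval and covered the start in both lists at 66.4% of those with a known start. The 619 sites from 400 to 600 bp shared 74.1% and covered it at 84.5%, the 871 from 600 to 800 bp 76.8% and 94.7%, and the 684 from 800 to 1000 bp 79.2% and 95.1%. The median Znhit1_KO peak under 400 bp ran from -192 to 134 bp and the CTRL peak from -178 to 136 bp. At 800 to 1000 bp the median Znhit1_KO peak ran from -396 to 490.5 bp and the CTRL peak from -411.5 to 483 bp.

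The deposited lists hold many intervals on more than 1 line. The rule did not use the number of lines, but this number rose with the width, which the rule bounded. Of the 2349 sites, 1239 (52.7%, 50.7 to 54.8) stood on at least 2 lines in both lists, against 49.0% of all one-to-one pairs. Another 272 (11.6%) did so in Znhit1_KO alone, against 15.2% of all pairs, and 429 (18.3%) in CTRL alone, against 17.1% of all pairs. The remaining 409 (17.4%) stood on 1 line in each, against 18.7% of all pairs. Of the sites wider in Znhit1_KO, 49.3% stood on at least 2 lines in Znhit1_KO alone. Of those narrower in Znhit1_KO, 57.8% stood on at least 2 lines in CTRL alone. The rule left such pairs out, so nothing is read from the differences to all pairs. Among sites under 400 bp 1.14% stood on at least 2 lines in both lists, and among those of 800 to 1000 bp 83.5%. In the sites of 1000 bp or more the share was 96.6% (94.6 to 97.9). The labels do not say what the repeated lines stand for.

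The promoters at these sites were rich in CG dinucleotides. In the 1887 different windows of the sites, the nearest of their gene, the median GC content was 62.3% (quartiles 57.3% and 67.7%) and the median observed over expected CG frequency 0.827 (0.712 and 0.941). Windows with a GC content over 55% and a CG frequency over 0.65 made up 73.3% (71.2 to 75.2). The share was 87.9% (84.5 to 90.7) at sites of 1000 bp or more, 75.1% (71.1 to 78.7) at sites wider in Znhit1_KO and 66.5% (61.4 to 71.2) at those narrower in Znhit1_KO. It was 54.4% (51.8 to 57.1) at the starts with a peak in Znhit1_KO alone, 47.8% (44.1 to 51.6) at those with a peak in CTRL alone, 19.9% (19.1 to 20.6) at genes with no gene-end peak in either list and 39.0% (38.3 to 39.6) in all 20085 windows of coding genes. Within the sites, those in the highest tertile of CG frequency had median widths of 729 bp in Znhit1_KO and 724 bp in CTRL, and those in the lowest tertile 655 bp in Znhit1_KO and 639 bp in CTRL. The rule limited these widths, so nothing is read from them.

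The motif of SP and KLF factors was the commonest of the 11 searched, in 73.3% (71.3 to 75.3) of the windows at these sites and 47.0% (46.3 to 47.7) of all windows. It was in 83.9% (80.1 to 87.1) at stable sites of 1000 bp or more, in 77.9% (74.1 to 81.3) at sites wider in Znhit1_KO and in 71.3% (66.4 to 75.7) at those narrower in Znhit1_KO. Motifs were read on both strands. The NRF1 motif was in 7.21% (6.13 to 8.46) of the windows at the sites, in 7.11% (5.02 to 9.97) at stable sites of 1000 bp or more, in 5.22% (3.59 to 7.54) where the peak was wider in Znhit1_KO and in 5.07% (3.23 to 7.87) where it was narrower in Znhit1_KO. It was in 2.48% (1.78 to 3.44) of those at peaks of Znhit1_KO alone, in 2.67% (1.70 to 4.19) of those at peaks of CTRL alone, in 0.586% (0.458 to 0.748) at genes with no peak and in 2.37% (2.17 to 2.59) of all. The ETS motif was in 24.0% (22.1 to 26.0) at the sites and 11.9% (11.4 to 12.3) of all, and the YY1 motif in 4.35% (3.51 to 5.36) at the sites and 1.83% (1.66 to 2.03) of all. The NF-Y motif was in 14.8% (13.3 to 16.5) at the sites and 8.97% (8.58 to 9.37) of all. The CREB and CREM motif was in 4.88% (3.99 to 5.94) at the sites and 2.3% (2.10 to 2.52) of all, and the E-box in 13.8% (12.3 to 15.5) at the sites and 7.89% (7.52 to 8.27) of all. The median GC content was 62.3% in the windows at the sites and 57% in all windows, and its part in these shares was not tested. With windows more than 1 kb from their site left out, 1860 remained, and the SP and KLF motif was in 73.9% of them, ETS in 24.2% and NRF1 in 7.20%.

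Not all of the other motifs were commoner at the sites than in all windows. The TATA box (TATAAA), a motif of starts used in few cell types, was counted anywhere in the window. It was in 6.04% (5.05 to 7.21) of the windows at the sites, 12.7% (12.3 to 13.2) of all windows and 17.9% (17.2 to 18.7) at genes with no peak. It was in 4.98% at stable sites of 1000 bp or more, 3.61% at sites wider and 5.92% at sites narrower in Znhit1_KO. At peaks of Znhit1_KO alone it was in 7.65%, and at peaks of CTRL alone in 7.43%. The MYB motif was in 18.7% (17.0 to 20.5) at the sites and 21.0% (20.5 to 21.6) of all. The motif of RFX factors (GTTGCCATG) was in 0.689% (0.403 to 1.18) at the sites and 0.682% (0.577 to 0.806) of all, and that of ZNF143 (ACTACAATT) in 0.954% (0.604 to 1.503) at the sites and 0.533% (0.441 to 0.643) of all. The ETS motif was in 13.3% (10.4 to 16.8) of windows at the stable sites of 1000 bp or more, in 22.5% (19.04 to 26.4) where the peak was wider in Znhit1_KO and in 20.8% (16.9 to 25.4) where it was narrower in Znhit1_KO.

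**Figure D4:**
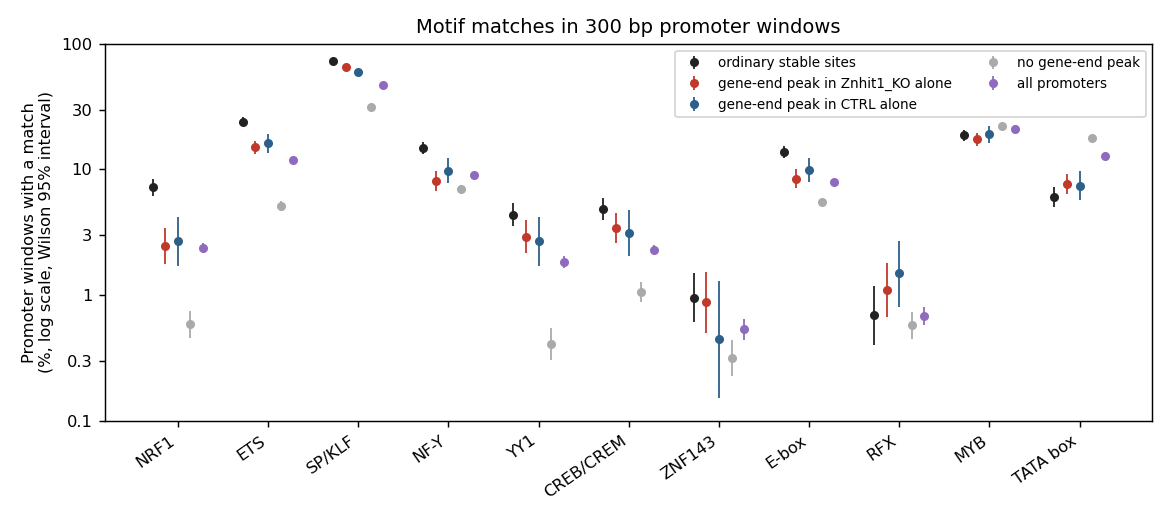
Share of 300 bp promoter windows with at least 1 match to each motif, in % on a log scale, with Wilson 95% intervals, for 5 sets of windows. The ordinary stable sites (black) stand above all promoters (violet) for NRF1, ETS, SP and KLF, NF-Y, YY1, CREB and CREM and the E-box, and below them for the TATA box. Other sites shared by both genotypes are not drawn.

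The motifs sat at different places in the windows. At the sites, the middle of the median match lay at -29.5 for ETS (all windows -35), at -33.5 for CREB and CREM (-47.5), at -48 for NRF1 (-48), at -62.5 for SP and KLF (-60.5) and at -77.5 for NF-Y (-74). The YY1 motif lay after the start, with a median at 16 (all windows 10.5). The median TATA box match lay at -166.5 (all windows -101.5). Of the 121 TATA box matches at the sites, 17 lay from -50 to -25. These were 9.01 per 1000 windows at the sites, against 33.5 per 1000 in all windows. At the 136 sites with the NRF1 motif the median width was 708 bp in Znhit1_KO and 708.5 bp in CTRL, and the shared part 79.5%. At the 1756 sites without it these were 693 bp in Znhit1_KO, 679 bp in CTRL and 76.5%. Here too the rule limited the widths.

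The sites were spread over genes of basic cell machinery and of meiotic prophase. The 2349 sites belonged to 2338 genes, which are 11.3% of the 20665 coding genes of chromosomes 1 to 19. Of 36 genes of the RNA exosome and mRNA decay 12 had one (33.3%, 20.2 to 49.7), of 24 replication licensing and origin genes 7, of 33 autophagy genes 9, of 28 Integrator and polyadenylation genes 7, of 24 Fanconi anaemia and homologous repair genes 6 and of 29 nuclear pore genes 7. Of 44 vesicle coat and tether genes 8 had one, of 37 aminoacyl-tRNA synthetase genes 7 and of 16 peroxisome genes 2, and the intervals of these last 3 lists include 11.3%. In at least 1 list, a gene-end peak of some kind was present at 31 mRNA decay, 20 replication and 29 autophagy genes. The count was 28 for Integrator and polyadenylation, 21 for Fanconi anaemia and repair and 25 for nuclear pore genes. For vesicle genes it was 41, for synthetase genes 33 and for peroxisome genes 14, against 9318 of all 20665 coding genes. Its part in the shares above was not tested.

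**Figure D5:**
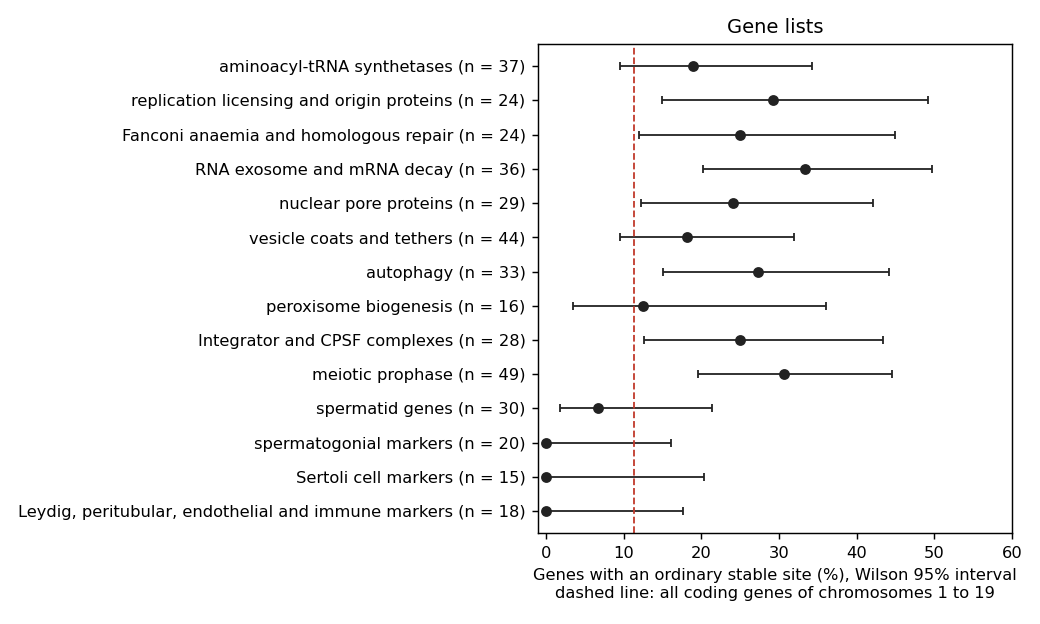
Share of the genes of each list that have an ordinary stable site, in %, with Wilson 95% intervals. The dashed line is the 11.3% of all coding genes, and the 3 lists of spermatogonial and somatic markers stand at 0.

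The mRNA decay sites included Cnot4, a ubiquitin ligase of the CCR4-NOT deadenylase complex, with 773 bp in Znhit1_KO and 785 bp in CTRL (98.2% shared), and Dcp1a, a decapping cofactor, with 637 bp in Znhit1_KO and 621 bp in CTRL (96.3%). The 12 sites had medians of 689 bp in Znhit1_KO and 774.5 bp in CTRL. Among the nuclear pore genes Nup93, a scaffold nucleoporin, had 887 bp in Znhit1_KO and 848 bp in CTRL (95.6%). The 7 pore sites had medians of 887 bp in Znhit1_KO and 835 bp in CTRL. Of the replication genes, Orc2, an origin recognition subunit, had 560 bp in Znhit1_KO and 553 bp in CTRL (96.6%), and Mcm10 had 550 bp in Znhit1_KO and 503 bp in CTRL (91.5%). Mcm2, a subunit of the replicative helicase, had the narrowest of these 7, with 267 bp in Znhit1_KO and 248 bp in CTRL.

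Of the 44 vesicle coat and tether genes, 8 others had a wider and 6 a narrower site in Znhit1_KO. Among all coding genes 2.91% had a wider and 2.01% a narrower one. Copb1, a COPI coat subunit, had 706 bp in Znhit1_KO and 672 bp in CTRL (91.1% shared), and Atg101, a subunit of the autophagy-starting kinase complex, 942 bp in Znhit1_KO and 1034 bp in CTRL (91.1%). Ints14 of the Integrator complex had 483 bp in Znhit1_KO and 507 bp in CTRL, and Cstf3, a cleavage stimulation factor, 657 bp in Znhit1_KO and 757 bp in CTRL from the same first base. Bard1, the partner of BRCA1, had 900 bp in Znhit1_KO and 1060 bp in CTRL, and Fanca 556 bp in Znhit1_KO and 638 bp in CTRL. The synthetase sites were the narrowest of the larger lists, with medians of 387 bp in Znhit1_KO and 543 bp in CTRL. Pars2, a mitochondrial prolyl-tRNA synthetase gene, had 359 bp in both. Of the peroxisome genes, Pex7 had 592 bp in Znhit1_KO and 411 bp in CTRL.

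Of 49 genes of meiotic prophase 15 had an ordinary stable site (30.6%, 19.5 to 44.5), with 16 sites among them. These ran from 315 to 1022 bp in Znhit1_KO and from 338 to 1029 bp in CTRL, with medians of 727 bp in Znhit1_KO and 701 bp in CTRL. Hfm1 had 736 bp in Znhit1_KO and 695 bp in CTRL (93.6% shared), and Sycp1 909 bp in Znhit1_KO and 1028 bp in CTRL (88.4%). Sun1, which ties telomeres to the nuclear envelope, had 1022 bp in Znhit1_KO and 966 bp in CTRL (86.5%). The others included the chromosome axis genes Hormad1, Hormad2 and Sycp3, the strand exchange gene Dmc1, the hotspot gene Prdm9, Msh5, Brdt and Ythdc2. Prdm9 had 889 bp in Znhit1_KO on 1 line and 1029 bp in CTRL on 4 lines. Another 5 genes had a stable site of 1000 bp or more, among them Mybl1, 3 were wider and none narrower in Znhit1_KO, 10 had a peak in Znhit1_KO alone and 1 in CTRL alone. Among all coding genes 2.42% had a stable site of 1000 bp or more, 2.91% a wider and 2.01% a narrower one in Znhit1_KO, 10.1% a peak in Znhit1_KO alone and 4.83% in CTRL alone.

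Of the 13 meiotic sites with a promoter window, 10 held the SP and KLF motif, 5 the E-box, 3 NF-Y, 3 MYB and 2 NRF1. None held the ETS motif, which was in 24.0% of the windows at all the sites, nor the CREB and CREM, YY1 or TATA motif. With 13 windows these counts are a description. The MYB matches were at Hormad1, Syce3 and Sycp1.

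Of 30 spermatid genes 2 had an ordinary stable site, Hook1, a microtubule linker needed for sperm head shape, with 932 bp in Znhit1_KO and 649 bp in CTRL, and the acrosin gene Acr, with 420 bp in Znhit1_KO and 294 bp in CTRL (18.02% shared). Their share was 6.67% (1.85 to 21.3), and a gene-end peak of some kind was present at 12 of the 30 genes. None of 20 spermatogonial markers had an ordinary stable site, which allows a share of up to 16.1%, none of 15 Sertoli cell markers (up to 20.4%), and none of 18 markers of immune, endothelial, peritubular and Leydig cells (up to 17.6%). These 3 intervals and that of the spermatid genes include the 11.3% of all coding genes. Other gene-end peaks were present at 8 of the 20 spermatogonial markers, 3 in Znhit1_KO alone, 4 in CTRL alone and 1 in both and narrower in Znhit1_KO. They were present at 4 of the 15 Sertoli markers and 2 of the 18 others, each in Znhit1_KO alone, against 10.1% of all coding genes with a peak in Znhit1_KO alone and 4.83% with one in CTRL alone. The part of other cells in the peak lists was not tested. For the labelled cell type, 41 of the 49 meiotic genes had a gene-end peak of some kind in at least 1 list, and 9318 of all 20665 coding genes did. The 8 meiotic genes without one included Spo11, Stag3, Mei4 and Rec114. Lists of basic machinery ran from 20 of 24 replication genes to 28 of 28 Integrator and polyadenylation genes. The meiotic count therefore does not set the labelled cell type apart.

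The sites were found on every chromosome searched. The share of coding genes with an ordinary stable site was lowest on chromosome 7, with 156 of 2030 genes (7.68%, 6.60 to 8.92), and highest on chromosome 18, with 88 of 511 (17.2%, 14.2 to 20.7). On the others it lay between 8.46% and 14.9%. Of the sites with no start in the promoter table, 89 were on chromosome 18, for which the table has no entries, and 355 on other chromosomes. The median length of the genes with a site was 27618 bp, and that of all coding genes of these chromosomes 17491 bp.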

How the data were processed

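The authors deposited 1 list of peak positions under a Znhit1_KO sample and 1 under a CTRL sample, as chromosome, start and end with no height, score or summit. The submitters' processing notes name MACS2 2.2.4, Picard 2.20.7, Bowtie2 2.3.4.3 and cutadapt 2.5, with mm10 as genome build. Peak threshold, Tn5 shift, duplicate filter, pooling of replicates and depth behind each list were not given in the sources used here. Other libraries were not analysed here.

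Repeated lines were counted once. Ends of coding genes came from the RefSeq gene table, and starts, strands and sequences from RefSeq promoter windows of 300 bp, both of GRCm38.p6. A site was oriented on the RefSeq start nearest the middle of its Znhit1_KO peak, and distances count the start base as 0. Of 418 list entries, 406 matched a coding gene of chromosomes 1 to 19, and stood for 403 different genes. Sites were named from rankings by fixed rules on the shared part, the bounds and the lists. Not every ranked site is given, and at a bound the site given is not always the nearest. A few meiotic genes, Mcm2 and the genes named for having 2 sites were chosen outside these rules. Printed promoters were chosen by the shared part within a motif, except Hfm1 and Sycp1, the meiotic sites with the largest shared part. Those chosen in this way for SP and KLF, ZNF143, the E-box, RFX and MYB were not printed. Sites, lists and motifs were chosen with earlier results of these data known. Scripts ran in Python 3.11.15 with numpy 2.4.6, pandas 2.3.3, scipy 1.17.1 and matplotlib 3.10.9, and pairing and motif search were tested on simulated data. Alternatives changed the overlap, window, width bounds, merging and repeat filter.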

Additional observations from a re-analysis of the deposited data

How the results depend on the processing

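No paired analysis was possible because there is 1 peak list per genotype, and for the same reason no library could be left out. Among 10 alternatives, the number of sites was 1264 with intervals on at least 2 lines, 1526 with tighter ratio bounds and 1194 with mean widths under 700 bp, and stayed within 1.5 times 2349 under the other 7. The share at a gene start was 99.6% with intervals on at least 2 lines, 99.7% with a 500 bp window and 98.2% with a 3 kb window. With the starts of the promoter table alone, chosen after seeing the data, it was 97.9%. The median shared part was 78.6% with intervals on at least 2 lines, 82.9% with tighter ratio bounds, 71.6% with ratios from 0.5 to 2, 77.4% with no width limit and 74.5% with mean widths under 700 bp. The share on at least 2 lines in both lists was 48.2% with ratios from 0.5 to 2, 60.5% with no width limit, 29.3% with mean widths under 700 bp and 54.8% with peaks within 200 bp merged, and was not computed where only such intervals were kept. The cause was not tested. The depth behind each list is unknown, and its part in the widths was not tested.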

Other observations

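At 11 genes there were 2 ordinary stable sites each. In several of them the pair stood on either side of a gap at or after the gene start. At Eif1, a translation start factor gene, the first ran from -342 to 115 bp around the start in Znhit1_KO and from -397 to 84 bp in CTRL, and the second from 201 to 733 bp in Znhit1_KO and from 221 to 719 bp in CTRL. Mark3, Ric1 and Tnrc6b had pairs of the same kind. At Zfp592 no peak covered the start. Its sites ran from -888 to -127 bp and from 372 to 674 bp in Znhit1_KO, and from -665 to -111 bp and from 142 to 573 bp in CTRL. At Ostc, which encodes a subunit of the glycosylation enzyme of the endoplasmic reticulum, the sites lay near opposite ends of the gene, from 130694706 to 130695111 and from 130709099 to 130709886 on chromosome 3 in Znhit1_KO, and from 130694726 to 130695048 and from 130709002 to 130709809 in CTRL.

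The end of a non-coding RefSeq gene lay within 1 kb of 427 of the 2349 sites (18.2%, 16.7 to 19.8). The share was 27.3% (23.6 to 31.3) at stable sites of 1000 bp or more, 16.2% (13.4 to 19.3) at sites wider in Znhit1_KO and 14.6% (11.6 to 18.3) at those narrower in Znhit1_KO.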
